A study of Caenorhabditis elegans with 12 samples.

Results

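The genes described here encode the cyclins and cyclin-dependent kinases (CDKs) that drive the G1, S and M phases of the cell cycle in Caenorhabditis elegans, with the CDK inhibitor gene cki-1. The 10 members, cyd-1, cdk-4, cki-1, cye-1, cdk-2, cya-1, cya-2, cyb-1, cyb-3 and cdk-1, were found by their WormBase identifiers among 46245 genes of the expression table. All 10 passed the filter on low values, a mean of 1 FPKM over the 12 libraries, and belong to the 12913 protein-coding genes tested. One of them, cya-2, passed it only through the lin-52 UV libraries, in which it is high, since its mean over the other 9 libraries was 0.937 FPKM. RNA was sequenced from whole larvae of the first stage (L1) of the N2 wild type and of a single lin-52(n771) mutant strain, synchronized and fed for 3 h. Larvae of each strain were mock-treated (groups N2 mock and lin-52 mock) or given 60 mJ/cm2 of UV-B (N2 UV, lin-52 UV). They were taken 6 h after treatment, with 3 libraries in each of the 4 groups, described as biological triplicates. The authors report quadruplicate plates of larvae for RNA-seq and triplicate RNA samples sequenced. The replicate numbers present are not the same in every group. LIN-52 is a subunit of DREAM, a repressor complex built from an E2F-DP pair, the pocket protein LIN-35 and the MuvB core. Because 1 strain stands for the mutation, other genetic differences between the strains cannot be told apart from it.

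A cyclin has no kinase activity of its own and gives its CDK partner activity and substrates. In the worm, CYD-1 with CDK-4 promotes passage through G1 and opposes LIN-35, CYE-1 with CDK-2 promotes entry into S phase, and the A- and B-type cyclins with CDK-1 drive mitosis. CKI-1, a relative of mammalian p27, blocks these kinases and holds cells in G1. In mammals, DREAM represses cell cycle genes, among them those of B-type cyclins and CDK1, in cells that have stopped dividing. Most cells of an L1 larva have left the cell cycle, and the remaining blast cells resume division after feeding, so levels in whole larvae mix a few cycling cells with many that do not cycle. In such bulk samples, fewer cells of a type and less RNA per cell cannot be told apart.

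The values are FPKM, fragments per kilobase of transcript scaled to a fixed number of mapped fragments, here scaled by library factors between 0.969 and 1.049. A difference is a log2 fold change on the log2(FPKM + 0.5) scale with its standard error (SE), which understates changes of low genes. It was called when the limma p, adjusted by Benjamini-Hochberg over all tested genes, was below 0.05. A lack of overlap between groups is given as a description only, since its share over all tested genes was not counted. Read totals are unknown, but the steps between low values put the depth of every library at 0.938 to 1.283 relative to N2 mock 1. The share of FPKM from ribosomal RNA was 22.6% in lin-52 mock 2, 19.8% in lin-52 mock 4 and 11.6% to 16.2% in the other libraries. The lin-52 transcript itself stood at 20.4 to 27.6 FPKM in N2 mock and 6.94 to 7.58 in lin-52 mock, and at 32.9 to 35.8 and 10.54 to 11.74 after UV, so the strains did not overlap.

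In N2 mock larvae, cdk-1 (WBGene00000405, chromosome III from 9747472 to 9748852 in WBcel235) was the most abundant member at 77.6 ± 3.07 FPKM (SD, n = 3 in this and all later means). Next came cki-1 (36.8 ± 1.62) and the B-type cyclin gene cyb-3 (35.5 ± 1.22), whose libraries overlapped. The other B-type cyclin gene cyb-1 (17.7 ± 0.566), cyd-1 (16.3 ± 1.93) and cdk-4 (14.9 ± 0.626) came below them, each overlapping its neighbour in this order. Lower again were the A-type cyclin gene cya-1 (10.4 ± 0.178), cdk-2 (9.75 ± 0.903) and cye-1 (8.29 ± 0.666), which also overlapped in order, and cya-2 was far below at 0.947 ± 0.116. FPKM is a value per length, so these levels can be set side by side.

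The order changed after UV. In N2 UV, cki-1 at 51.9 ± 1.36 FPKM was above cdk-1 at 41.8 ± 1.14 with no overlap. The gene cdk-2 moved from the eighth to the fourth place at 11.08 ± 0.623. It overlapped its neighbours cya-1 and cye-1 in N2 mock and cyb-1 in N2 UV, and its own UV difference in N2, 0.18 ± 0.08, was not called. In lin-52 UV, cdk-1 (50.04 ± 4.56) and cki-1 (47.4 ± 4.37) overlapped. In lin-52 mock, cdk-1 led at 89.7 ± 3.00, ahead of cki-1 at 38.5 ± 2.096.

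**Figure D1:**
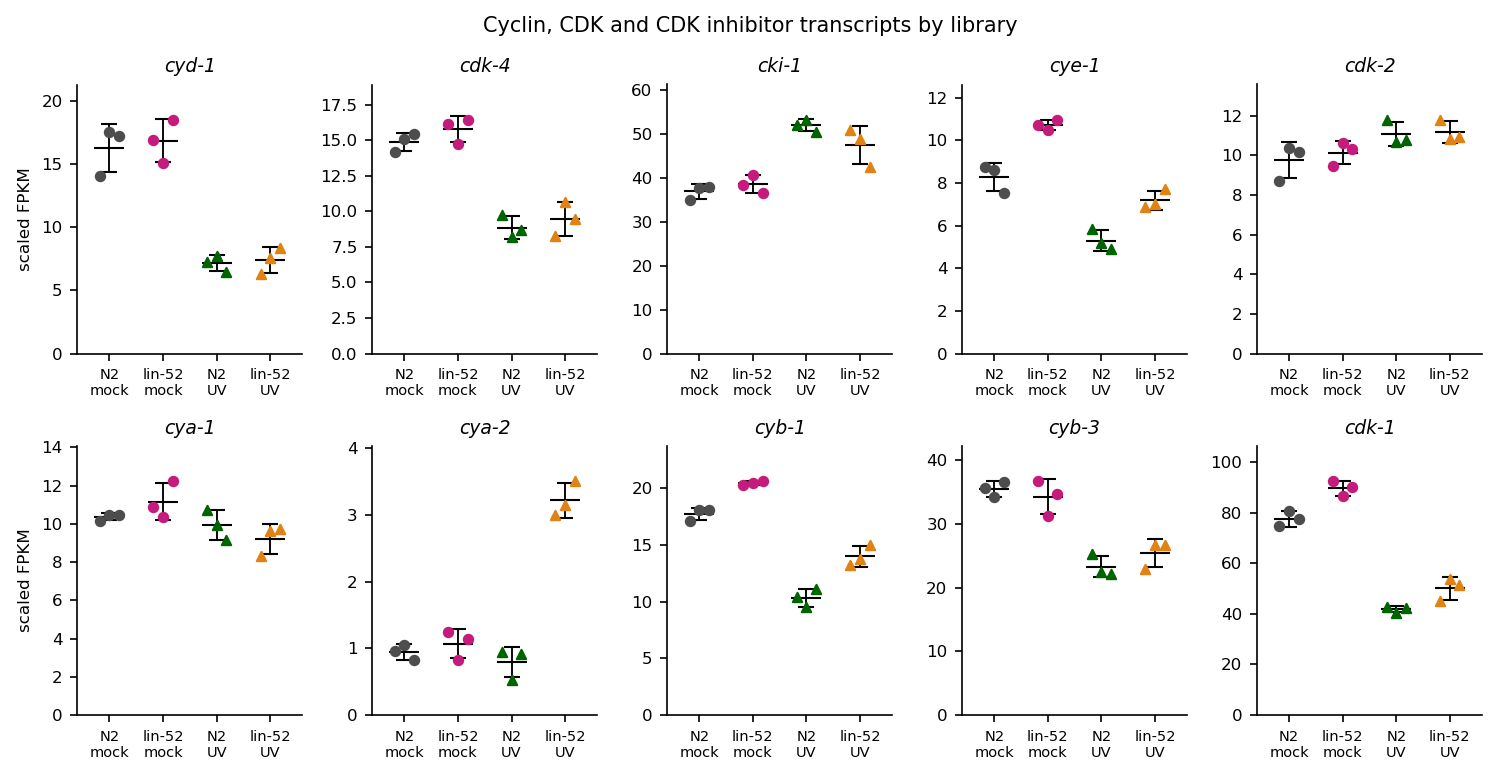
Scaled FPKM (y axis, from 0) of each of the 10 genes in the 12 libraries, by group (x axis). Points are libraries (circles mock, triangles UV), and bars show the mean and SD of 3 libraries. The N2 UV and lin-52 UV points of cdk-1 lie between 40.48 and 53.81, below all mock points, and cya-2 exceeds 3 FPKM only in lin-52 UV.

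The UV comparison within N2 sets irradiated wild-type larvae against mock-treated ones, both taken 6 h after treatment. No library was taken at the time of irradiation, so words such as fell and rose mean UV against mock, not a course in time. Of the 10 genes, 6 fell (cyd-1, cdk-4, cye-1, cyb-1, cyb-3 and cdk-1) and 1 rose (cki-1), where 37.0% and 36.6% of all tested genes were called lower and higher. The median change of the members was -0.60, against 0.00 over all tested genes. The same 6 genes fell and cki-1 rose in lin-52 mutants, where cya-1 also fell and cya-2 rose, which makes 7 lower and 2 higher against backgrounds of 33.5% and 33.1%, with a median of -0.48 against 0.00. Without cya-2, the count in lin-52 is 7 lower and 1 higher of 9 members.

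The G1 cyclin gene cyd-1 (WBGene00000870, chromosome II from 12980591 to 12993117) had the largest decrease of the members. It stood at 14.05, 17.52 and 17.26 FPKM in N2 mock and at 7.285, 7.713 and 6.483 in N2 UV. In lin-52 it stood at 16.91, 15.13 and 18.54 without UV and at 6.309, 7.583 and 8.377 after it. Each UV library was below each mock library in both strains. The change was -1.13 ± 0.12 in N2 and -1.14 ± 0.12 in lin-52 (limma adjusted p = 3.73e-06 and 5.00e-06).

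Its kinase partner cdk-4 (WBGene00000406, chromosome X from 13515856 to 13518911) was at 14.19, 15.06 and 15.4 FPKM in N2 mock and 9.718, 8.17 and 8.646 in N2 UV. In lin-52 the values were 16.11, 14.74 and 16.44, then 8.258, 10.62 and 9.45. Mock and UV libraries did not overlap in either strain, and the change was -0.72 ± 0.09 in both (limma adjusted p = 1.82e-05 in N2 and 2.64e-05 in lin-52). The ratio of cyd-1 to cdk-4 within a library was 1.09 ± 0.0900 in N2 mock and 0.815 ± 0.112 in N2 UV, and 1.07 ± 0.0531 and 0.788 ± 0.0887 in lin-52. The 3 UV libraries were lower than the 3 mock libraries in both strains.

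The inhibitor gene cki-1 (WBGene00000516, chromosome II from 7811240 to 7812105) went the other way. It was at 34.97, 37.62 and 37.91 FPKM in N2 mock and 51.92, 53.18 and 50.45 in N2 UV. In lin-52 it was at 38.4, 40.62 and 36.43 without UV and 50.92, 48.74 and 42.5 after it. The groups did not overlap within a strain, and came closest in lin-52 UV 4 and lin-52 mock 3. The increase was 0.49 ± 0.07 in N2 and 0.29 ± 0.07 in lin-52 (limma adjusted p = 3.02e-05 and 0.00185). Without lin-52 mock 2 and 4, the libraries with the most ribosomal RNA, the increase in lin-52 was 0.22. That fit leaves lin-52 mock 3 alone in its group, so it cannot decide the call. The difference between the strains' increases, -0.19 ± 0.09, with a 95% interval from -0.40 to 0.01, was not called (limma adjusted p = 0.202).

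The S phase cyclin gene cye-1 (WBGene00000871, chromosome I from 6780799 to 6784397) was at 8.756, 8.591 and 7.529 FPKM in N2 mock and 5.83, 5.179 and 4.893 in N2 UV. The lin-52 libraries had 10.72, 10.49 and 10.98 without UV and 6.89, 6.998 and 7.71 after it. It fell in both strains with no overlap, by 0.60 ± 0.08 in N2 and by 0.55 ± 0.08 in lin-52 on the log2 scale (limma adjusted p = 3.75e-05 and 0.000107).

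Its kinase gene cdk-2 (WBGene00019362, chromosome I from 3410013 to 3416368) did not follow. It was at 8.711, 10.38 and 10.14 FPKM in N2 mock and 11.8, 10.66 and 10.78 in N2 UV, a difference of 0.18 ± 0.08 (limma adjusted p = 0.0560). The N2 groups did not overlap, although N2 mock 2 and N2 UV 2 were close. The call depends on the processing: the difference in N2 was 0.23 on FPKM as deposited and was called (limma adjusted p = 0.0300). In lin-52 it was at 9.467, 10.6 and 10.32 without UV and 11.8, 10.83 and 10.9 after it, 0.14 ± 0.08 (limma adjusted p = 0.144). The antisense RNA gene anr-45 shares 76 exon bases with cdk-2 on the opposite strand and went from 0.386 to 1.33 FPKM in the mock libraries to 2.57 to 4.59 after UV. Since the sources do not say whether counting used strand, its part in the cdk-2 values was not tested.

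The ratio of cye-1 to cdk-2 was therefore lower after UV. It was 0.858 ± 0.134 in N2 mock and 0.478 ± 0.0214 in N2 UV, and 1.06 ± 0.0714 and 0.646 ± 0.0617 in lin-52. Within each strain the mock and UV libraries did not overlap.

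**Figure D2:**
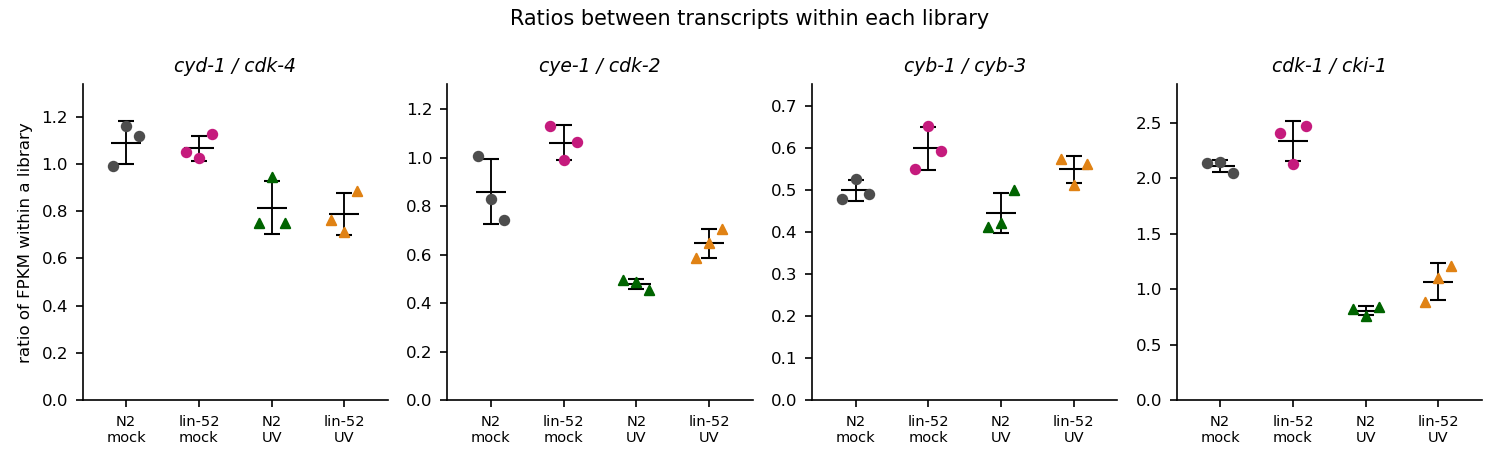
Ratio of the FPKM of 2 transcripts within each library (y axis, from 0) for 4 pairs, by group (x axis). Points are libraries, and bars give the mean and SD of 3 libraries. The ratio of cdk-1 to cki-1 lies between 2.04 and 2.47 in mock libraries and between 0.761 and 1.21 in UV libraries.

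The 2 A-type cyclin genes changed little in N2. For cya-1 (WBGene00000863, chromosome III from 9106699 to 9109272) the N2 values were 10.17, 10.46 and 10.49 FPKM in mock and 10.75, 9.937 and 9.163 after UV, which overlapped. In lin-52 it was at 10.9, 10.36 and 12.24 without UV and 8.321, 9.605 and 9.737 after it. The differences were -0.06 ± 0.08 in N2 and -0.26 ± 0.08 in lin-52 (limma adjusted p = 0.531 and 0.0151). In lin-52 the call ended on leaving out lin-52 mock 4 (-0.20, limma adjusted p = 0.0697) or lin-52 UV 2 (-0.20, limma adjusted p = 0.0640). It also ended when every library was set to the same sum of protein-coding FPKM (-0.19, limma adjusted p = 0.0608). The gene shares 107 exon bases with dos-1 on the opposite strand, and dos-1 went from 4.41 to 6.14 FPKM in mock to 1.16 to 3.34 in UV libraries, so its part in the values of cya-1 was not tested.

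The second A-type gene, cya-2 (WBGene00000864, chromosome II from 2022673 to 2023614), was near 1 FPKM in 9 of the 12 libraries. It was at 0.9663, 1.052 and 0.8218 in N2 mock, 1.242, 0.8277 and 1.143 in lin-52 mock, and 0.9382, 0.5317 and 0.9108 in N2 UV. In lin-52 UV it reached 3.006, 3.144 and 3.51, above every other library. Because only these 3 libraries carried the gene over the filter, a fit with no filter is given beside each test. The UV difference in lin-52 was 1.25 ± 0.18 (limma adjusted p = 5.80e-05, and 5.90e-05 with no filter), whereas the difference in N2 was -0.17 ± 0.18 (limma adjusted p = 0.387). The strain difference of the UV effect, 1.43 ± 0.25 (limma adjusted p = 0.00657, and 0.00802 with no filter), was the only such call among the 10 members, where 5.44% of all tested genes were called higher and 6.20% lower. Over the 22 alternatives in which the gene was tested, the values were 1.16 to 1.78. All of these but the fit with no filter let it in through the same 3 libraries, so they give no separate support. With a filter at a mean of 5 FPKM the gene is not tested. The gene lies in an intron of bath-21 on the same strand with 0 shared exon bases, and bath-21 was at 0.201 to 0.504 FPKM in lin-52 UV, below its 0.675 to 0.846 in N2 UV.

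The mitotic genes fell in both strains. The kinase gene cdk-1 stood at 74.6, 80.73 and 77.45 FPKM in N2 mock and 42.53, 40.48 and 42.34 in N2 UV. In lin-52 the values were 92.48, 86.53 and 90.1 without UV and 44.96, 53.81 and 51.35 after it. It fell by 0.88 ± 0.06 in N2 and by 0.84 ± 0.06 in lin-52 on the log2 scale (limma adjusted p = 8.06e-08 and 2.05e-07). These were the smallest p-values among the 10 members in both strains.

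Both B-type cyclin genes followed cdk-1 with smaller changes. The values of cyb-1 (WBGene00000865, chromosome IV from 10735216 to 10737177) were 17.05, 18.04 and 18.02 FPKM in N2 mock and 10.43, 9.492 and 11.07 in N2 UV. They were 20.24, 20.47 and 20.61 in lin-52 mock and 13.19, 13.71 and 15.01 in lin-52 UV, and no mock library overlapped a UV library. The changes were -0.75 ± 0.06 and -0.54 ± 0.06 (limma adjusted p = 6.28e-07 and 1.67e-05). Those of cyb-3 (WBGene00000868, chromosome V from 15395696 to 15397353) were -0.60 ± 0.08 and -0.42 ± 0.08 (limma adjusted p = 1.91e-05 and 0.000424). Its N2 libraries had 35.59, 34.24 and 36.67 FPKM in mock and 25.24, 22.52 and 22.14 after UV, and its lin-52 libraries 36.74, 31.33 and 34.73, then 22.99, 26.73 and 26.72. Neither strain showed an overlap for this gene.

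Because cdk-1 fell and cki-1 rose, the ratio between their transcripts was lower after UV. It was 2.11 ± 0.0561 in N2 mock and 0.807 ± 0.0405 in N2 UV, and 2.34 ± 0.182 and 1.07 ± 0.166 in lin-52. The ratio of cki-1 to cdk-4 went from 2.47 ± 0.0202 to 5.90 ± 0.586 in N2 and from 2.45 ± 0.276 to 5.08 ± 0.938 in lin-52. That of cyb-1 to cdk-1 was 0.228 ± 0.00458 in N2 mock and 0.247 ± 0.0136 in N2 UV, and 0.228 ± 0.00885 and 0.280 ± 0.0219 in lin-52. The ratio of cyb-1 to cyb-3 was 0.499 ± 0.0249 in N2 mock and 0.445 ± 0.0480 in N2 UV, whose libraries overlapped, and 0.599 ± 0.0514 and 0.549 ± 0.0321 in lin-52, which overlapped too. These are ratios of transcripts and say nothing of protein.

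**Figure D3:**
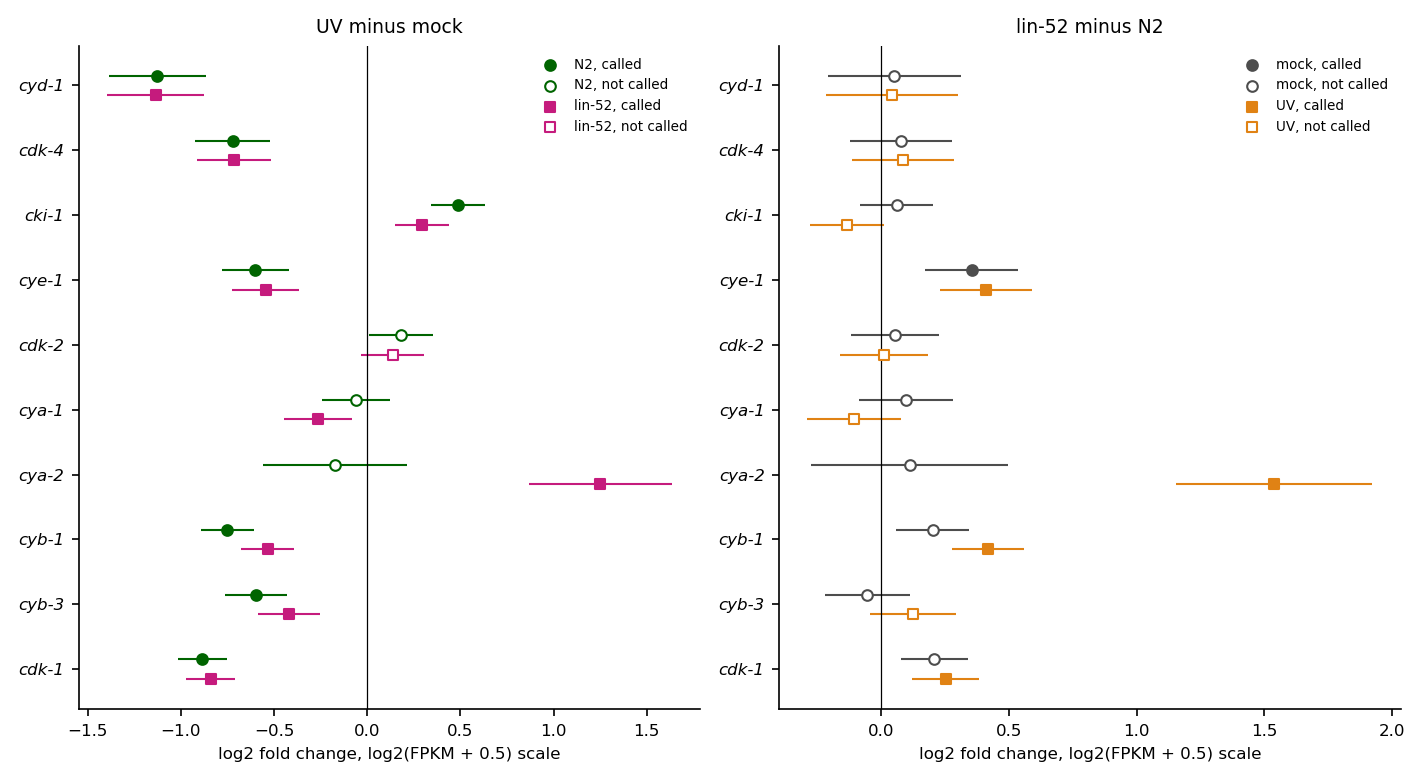
Log2 fold changes on the log2(FPKM + 0.5) scale (x axis) of the 10 genes (y axis) with 95% confidence intervals from limma, for UV minus mock in each strain (left) and lin-52 minus N2 at each treatment (right). Filled symbols passed an adjusted p of 0.05. The UV effects of the strains lie close together for cyd-1 (-1.13 and -1.14), whereas those of cya-2 are apart (-0.17 and 1.25).

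The strain comparison without UV asks which members differ between mock-treated lin-52 and N2 larvae. Only cye-1 was called, 0.36 ± 0.08 higher in lin-52 (limma adjusted p = 0.0286), with all 3 mutant libraries (10.49 to 10.98 FPKM) above all N2 libraries (7.529 to 8.756). That is 1 of 10 members, where 3.59% of all tested genes were called higher and 1.74% lower, and the median difference was 0.09 for the members and -0.02 over all genes. The call was lost on leaving out N2 mock 2 or 4 or any of the lin-52 mock libraries, with limma adjusted p from 0.0571 to 0.110, while the difference stayed between 0.29 and 0.38. The genes cyb-1 and cdk-1 were 0.20 ± 0.06 and 0.21 ± 0.06 higher in lin-52 but not called (limma adjusted p = 0.107 and 0.0749). Their libraries did not overlap, but how many of all tested genes share this was not counted. On FPKM as deposited, cdk-1 was called (0.24, limma adjusted p = 0.0338). For the other 7 genes the differences lay between -0.05 and 0.11.

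After UV, 4 members were higher in lin-52 than in N2, against 13.0% of all tested genes higher and 15.2% lower, and the other 6 were not called. Without cya-2, which passed the filter through lin-52 UV alone, the count is 3 of 9. Besides cya-2 (1.54 ± 0.18, limma adjusted p = 0.000123, and 0.000133 with no filter), these were cyb-1 (0.42 ± 0.06, limma adjusted p = 0.000818), cye-1 (0.41 ± 0.08, limma adjusted p = 0.00386) and cdk-1 (0.25 ± 0.06, limma adjusted p = 0.00899). The calls of cyb-1, cye-1 and cdk-1 held in every alternative, and that of cya-2 held with no filter. All libraries of lin-52 UV were above all those of N2 UV for each of them, which was not counted over all tested genes. On another scaling of libraries, to an equal sum of protein-coding FPKM, the split of all called genes was 2248 higher and 1257 lower in place of 1673 and 1964, and without UV 574 higher and 93 lower in place of 463 and 225. The G1 genes cyd-1 (0.04 ± 0.12) and cdk-4 (0.09 ± 0.09), cdk-2 (0.01 ± 0.08) and cyb-3 (0.13 ± 0.08) were not called. The 95% intervals were -0.22 to 0.30 for cyd-1, -0.11 to 0.29 for cdk-4, -0.16 to 0.18 for cdk-2 and -0.04 to 0.29 for cyb-3. The inhibitor gene cki-1 was at -0.13 ± 0.07 in lin-52 UV against N2 UV, with a 95% interval from -0.28 to 0.01, and was not called (limma adjusted p = 0.156).

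The decreases of the 6 members that fell with UV in both strains were not found to differ between strains. The strain difference of the UV effect was -0.01 ± 0.17 for cyd-1, 0.01 ± 0.13 for cdk-4, 0.05 ± 0.12 for cye-1 and 0.05 ± 0.08 for cdk-1, with limma adjusted p from 0.775 to 0.983. Its intervals reach from -0.38 to 0.36 for cyd-1 and from -0.14 to 0.23 for cdk-1. For cyb-1 it was 0.22 ± 0.09, toward a smaller decrease in lin-52, and for cyb-3 0.18 ± 0.11, neither of them called (limma adjusted p = 0.150 and 0.316). The 2 UV comparisons and the 2 strain comparisons share libraries and are not independent of each other.

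The markers of several cell types moved with the groups. The summed FPKM of 18 germline genes was 114.6 to 121.3 in N2 mock and 249.7 to 270.9 in lin-52 mock, and 122 to 124.5 and 262 to 289 after UV. Of 16 tested germline genes, 6 were called higher in lin-52 without UV and 8 after it, where 3.59% and 13.0% of all tested genes were, and the other 10 and 8 were not called. Most of the difference in the sum came from hrde-1, pgl-3 and glh-1. The other 15 germline genes summed to 86.04 to 92.43 FPKM in N2 mock and 98.17 to 105.8 in lin-52 mock, and to 92.15 to 93.62 and 104.5 to 111.0 after UV. The sum of 13 genes of epidermis and seam was 448 to 495 in mock and 254 to 320.0 in UV libraries, and that of 12 neuron genes was 844 to 922 in mock and 632 to 702 in UV libraries. The sum of 12 body wall muscle genes was 5188 to 5967 in mock and 3817 to 4302 in UV libraries. The sum of 12 intestine genes was 4999 to 5484 in mock and 4793 to 5471 in UV libraries, the lowest in N2 UV 1, where vha-6 was listed at 0 against 296 to 354 FPKM in the other libraries, and that of 12 embryo genes was 81.8 to 87.6 in mock and 116 to 133 in UV libraries. No germline, neuron, muscle or epidermis marker was at 0 throughout a group, while 1 intestine marker and 1 or 2 of the embryo markers were. Sums weigh the most abundant genes, such as asp-1 of the intestine (3521 FPKM in N2 mock 1) and skn-1 of the embryo list (67.2). In the epidermis and seam list this is grd-10 (186.8 in N2 mock 1 and 114.9 in N2 UV 1). In N2 UV against N2 mock, 3 of 13 epidermis genes were called higher and 7 lower. For 11 tested intestine genes these counts were 5 and 3, and for 6 tested embryo genes 4 and 0. For 12 neuron genes they were 1 and 10, and for 12 muscle genes 1 and 11. Of all tested genes, 36.6% were higher and 37.0% lower. The part of these cell types in the values of the cyclin and CDK genes was not tested.

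Genes that act with or on these kinases came from 8 lists. Their counts stand against the shares of all tested genes given above, which with UV were 36.6% higher and 37.0% lower in N2 and 33.1% higher and 33.5% lower in lin-52. Of 6 other cyclin genes, 5 rose and 1 fell after UV in N2, and 4 rose and 1 fell in lin-52, opposite to the direction of most members. The transcription cyclin genes led them. The cyclin H gene cyh-1, whose protein works with CDK-7, went from 17.9 ± 1.37 FPKM in N2 mock to 58.8 ± 1.76 in N2 UV and from 17.5 ± 1.42 to 40.5 ± 0.480 in lin-52. The cyclin T gene cit-1.2, of the elongation kinase CDK-9, went from 22.9 ± 0.312 to 52.7 ± 1.63 and from 23.3 ± 0.458 to 39.0 ± 2.19. The cyclin C gene cic-1, of the Mediator kinase module, rose by 0.73 ± 0.08 and 0.60 ± 0.08.

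Among 8 other CDK genes, 5 rose and 2 fell in N2 UV, and 3 rose and 2 fell in lin-52 UV, the latter near the 33.1% and 33.5% of all tested genes. The CDK-activating kinase gene cdk-7 went from 20.7 ± 0.618 FPKM to 47.2 ± 1.16 in N2 and from 23.8 ± 1.404 to 40.9 ± 0.433 in lin-52. The gene cdk-11.2 rose by 1.29 ± 0.07 and 0.76 ± 0.07. It has a related gene, cdk-11.1, and whether reads were divided between them was not tested. The increases of cyh-1 (-0.50 ± 0.09), cit-1.2 (-0.46 ± 0.06), cdk-7 (-0.40 ± 0.07) and cdk-11.2 (-0.53 ± 0.09) were smaller in lin-52 than in N2 (limma adjusted p of the strain difference of the UV effect = 0.00794, 0.00256, 0.00547 and 0.00726), and these calls held in every alternative. The CDK gene pct-1, of the PCTAIRE family, fell by 0.77 ± 0.05 in N2 and by 0.65 ± 0.05 in lin-52 on the log2 scale.

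The direct partners of the members moved in both directions. Of 8 tested genes for CDK phosphatases, inhibitory kinases and binding partners, 3 rose and 4 fell in N2 UV, and 2 rose and 4 fell in lin-52 UV, which for so few genes is near the shares of all tested genes (36.6% and 37.0% in N2, 33.1% and 33.5% in lin-52). The phosphatase gene cdc-25.2, whose protein removes inhibitory phosphates from CDK-1, changed by -0.93 ± 0.11 and -0.65 ± 0.11. The CDK subunit gene cks-1 changed by -0.77 ± 0.08 and -0.48 ± 0.08, and was 0.62 ± 0.08 higher in lin-52 than in N2 after UV (limma adjusted p = 0.000251). The second inhibitor gene, cki-2, rose by 0.46 ± 0.14 in N2 (limma adjusted p = 0.0122), a call lost without N2 UV 1 (adjusted p = 0.0522). The genes cyb-2.1 and cyb-2.2, 2 near-identical B-type cyclin genes, averaged 0.513 to 1.29 FPKM over the groups and were not tested.

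Of 5 E2F, DP and Rb genes, 3 were higher in lin-52 at both treatments, against 3.59% and 13.0% of all genes. The DP gene dpl-1 was 0.85 ± 0.07 higher without UV and 1.00 ± 0.07 after it, the E2F gene efl-1 0.68 ± 0.05 and 0.68 ± 0.05, and the Rb-like gene lin-35 0.40 ± 0.06 and 0.68 ± 0.06 (largest limma adjusted p = 0.00153). Leaving out lin-52 mock 2 and 4 together leaves lin-52 mock 3 alone in its group, so that fit cannot decide the call of lin-35 without UV. After UV, efl-2 fell by 1.19 ± 0.12 in N2 and by 1.095 ± 0.12 in lin-52.

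Genes of S phase fell with the members. Of 21 tested, 19 fell and 2 rose in N2 UV, and 18 fell in lin-52 UV with the other 3 not called, with median changes of -0.76 and -0.69, where 37.0% and 33.5% of all tested genes fell. The thymidylate synthase gene tyms-1 went from 60.6 ± 2.76 FPKM to 28.1 ± 0.524 in N2 and from 50.6 ± 2.49 to 18.1 ± 1.90 in lin-52. Genes of the MCM helicase followed, with -1.07 ± 0.06 for mcm-2 and -1.05 ± 0.06 for mcm-7 in N2 and -0.93 ± 0.05 for mcm-5 in lin-52. The origin licensing gene cdc-6 (0.26) and the ribonucleotide reductase gene rnr-2 (0.24), named after their values were seen, were those that rose in N2. Between strains, 3 S phase genes were higher in lin-52 without UV and 13 after it, where 3.59% and 13.0% of all tested genes were, while tyms-1 was lower after UV, at -0.63 ± 0.07. The DNA ligase gene lig-1 was the most changed, at 0.79 ± 0.05 and 0.80 ± 0.05. The count of 3 depends on the libraries and scaling, with 1 to 9 over the alternatives, and the 13 became 8 without lin-52 UV 3 or without lin-52 UV 4.

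Most genes of M phase fell with UV, and a few rose. Of 25 tested, 17 fell and 3 rose in N2 UV, and 15 fell and 5 rose in lin-52 UV, with medians of -0.28 and -0.19, where 37.0% and 33.5% of all tested genes fell and 36.6% and 33.1% rose. The 5 that rose in lin-52 became 3 without lin-52 UV 4. The Aurora A kinase gene air-1 went from 38.3 ± 1.32 FPKM to 17.5 ± 0.824 in N2 and from 48.7 ± 1.94 to 22.9 ± 1.94 in lin-52. The gene csc-1, for a subunit of the chromosomal passenger complex, changed by -0.95 ± 0.07 and -0.77 ± 0.07. Without UV, 14 of 25 were higher in lin-52 and the other 11 were not called, and after UV 16 were higher and 1 lower, where 3.59% and 13.0% of all tested genes were higher. The centriole assembly gene sas-6 (0.82 ± 0.07 and 1.07 ± 0.07) and the separase gene sep-1 (0.68 ± 0.05 and 0.82 ± 0.05) led both comparisons. Leaving out lin-52 mock 2 and 4 leaves lin-52 mock 3 alone in its group, so the count of 14 cannot be judged from that fit.

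The degradation machinery showed no common direction with UV. Of 21 tested genes for ubiquitin ligases that act on cyclins and for the anaphase-promoting complex, 6 rose and 6 fell in N2 UV, and 3 rose and 7 fell in lin-52 UV. These counts are near or below the shares of all tested genes (36.6% and 37.0% in N2, 33.1% and 33.5% in lin-52). The 7 became 4 with an equal sum of protein-coding FPKM. The DNA damage-binding gene ddb-1, of the CUL-4 ligase, rose by 0.83 ± 0.04 and 0.62 ± 0.04, whereas skpt-1, a relative of the mammalian F-box gene for SKP2, changed by -1.02 ± 0.10 and -0.78 ± 0.10. Between strains without UV, 6 of the 21 were higher in lin-52 and 1 lower, where 3.59% and 1.74% of all tested genes were. The 6 became 2 without N2 mock 4 or without lin-52 mock 2, and the 1 lower was lost in 12 of 24 alternatives. Among the 6, mat-2 and apc-17, of the anaphase-promoting complex, were 0.46 ± 0.04 and 0.45 ± 0.08 higher. After UV, 4 were higher in lin-52 and 4 lower, where 13.0% and 15.2% of all tested genes were. The 4 lower became 1 on FPKM as deposited and without lin-52 UV 3 or lin-52 UV 4. Of 12 tested genes linked to cki-1 and to exit from G1, 6 rose and 1 fell in N2 UV and 2 rose and 3 fell in lin-52 UV, against 36.6% and 37.0% of all tested genes in N2 and 33.1% and 33.5% in lin-52. The largest of these 12 genes' changes in size was -0.31 ± 0.08 for hbl-1 in lin-52. The phosphatase gene cdc-14 (0.28 ± 0.05) led the increases in N2 and eor-1 (0.29 ± 0.06) those in lin-52.

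**Figure D4:**
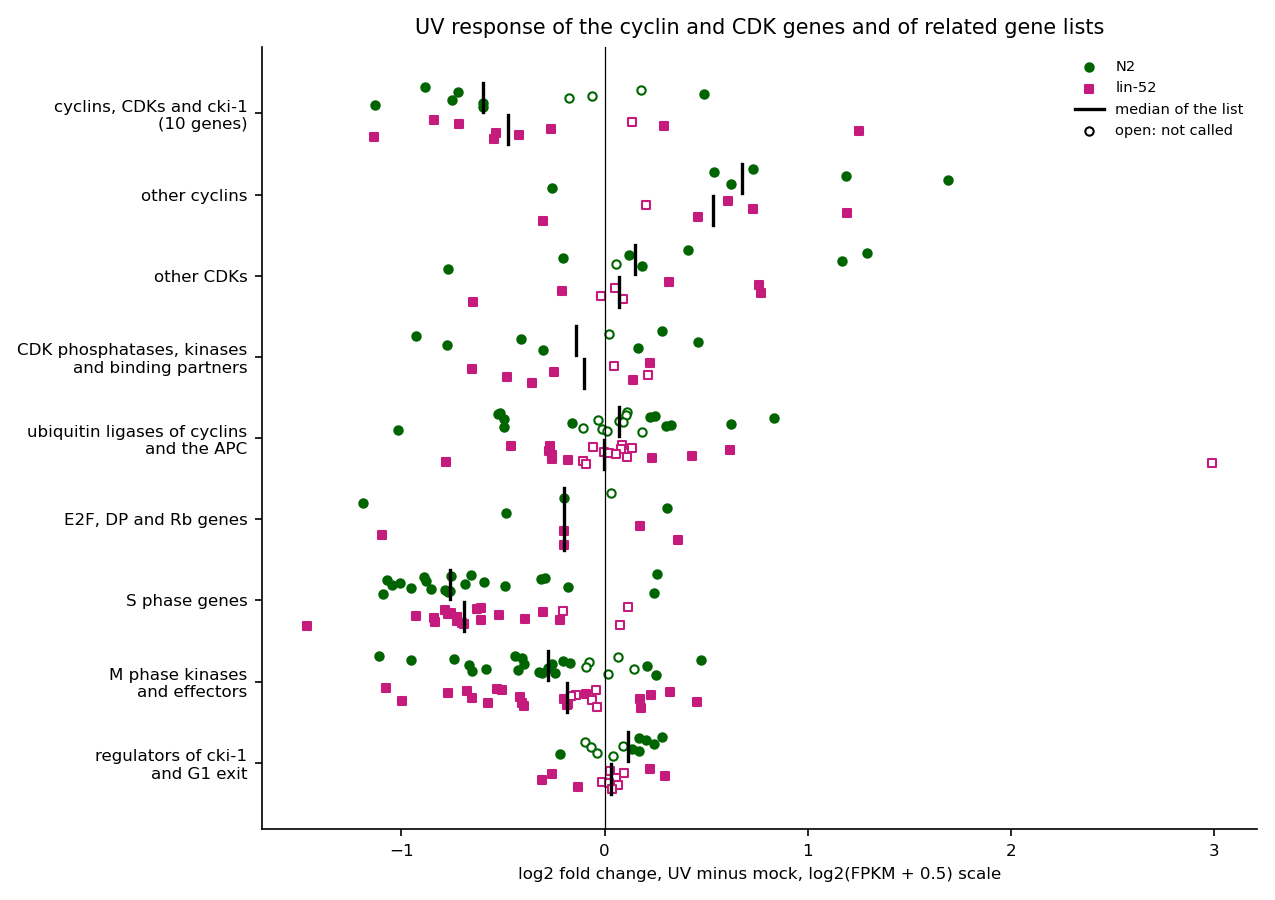
Log2 fold change of UV minus mock on the log2(FPKM + 0.5) scale (x axis) of each tested gene in 9 sets (y axis), in N2 (green circles) and lin-52 (magenta squares). Open symbols were not called, and black bars are medians. The S phase medians (-0.76 and -0.69) lie near those of the 10 genes (-0.60 and -0.48), 5 of the 6 other cyclins lie above 0 in both strains, and the open square near 3 is skr-1, which was listed at 0 in 3 of the 12 libraries, lin-52 mock 4 among them.

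The genes whose pattern over the 12 libraries was most like that of 3 members were found by Pearson's r of log2(FPKM + 0.5), as a description. For cdk-1 these were R05H5.3 (r = 0.995) and the nuclear hormone receptor genes nhr-73 (0.995) and nhr-245 (0.994). For cye-1 they were zwl-1 (0.990), tost-1 (0.987) and swsn-4 (0.983), and for cki-1 the neuropeptide genes flp-26 (0.987) and nlp-76 (0.986) and the lipin gene lpin-1 (0.982). The 12 libraries fall into mock and UV, and many genes follow that split, so a high r is shared by many pairs of genes. Among the members, cdk-1 and cdk-4 had r = 0.978 over the 12 libraries and 0.863 on deviations from the group means, and cki-1 and cyb-3 had -0.945 and -0.474.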

How the data were processed

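The deposited table held 1 FPKM value per gene and library. The authors depleted ribosomal RNA, made stranded libraries, mapped paired reads with Tophat on Ensembl gene models and computed the deposited FPKM with Cufflinks, and named DESeq2 for their own tests. The methods name the Ensembl release of the gene models, while the name of the assembly and the use of strand in counting are not given in the sources used here, and FPKM keeps no read totals. Intervals therefore reflect the spread between libraries only, and the labels do not describe separate cultures.

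Of 46245 identifiers, 45990 matched Ensembl release 115 (WBcel235), which gave names, positions and biotypes. FPKM was divided by median-ratio size factors, taken from protein-coding genes with no 0 in any of the 12 libraries. The 12913 protein-coding genes that averaged 1 FPKM or more were taken to log2(FPKM + 0.5) and fitted with limma 3.58.1 in R 4.3.3, with 4 group means and an intensity trend (prior df 3.28). Benjamini-Hochberg adjustment ran over all genes of each comparison. Figures used Python 3.11.15 with matplotlib 3.10.9. The members and lists (8 of pathways, 6 of cell types, 195 entries, 3 unmatched) were chosen with earlier results of these data known. All 10 members are named, and from each list up to 3 called genes with the largest change per comparison. Others are named as chosen after their values were seen. Alternatives were 3 scalings, pseudocounts of 0.1 and 1, no filter or a mean of 5 FPKM, all biotypes, no trend, a replicate block, only the groups compared, and each library left out. Leaving out lin-52 mock 2 and 4 together was chosen after seeing the data. It leaves lin-52 mock 3 alone in its group, so calls cannot be judged from it, though counts over the alternatives include it. Promoter and protein sequences were not analysed here.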

Additional observations from a re-analysis of the deposited data

Results flagged for a closer look

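The strain difference of the UV effect (UV effect in lin-52 minus that in N2, log2 scale, limma) was tested for the 10 members and for the tested genes of the 8 related lists. Among the members, cya-2 differed between the strains, at 1.43 ± 0.25 (adjusted p = 0.00657). The gene passed the filter only through the lin-52 UV libraries, in which it is high, and with no filter the adjusted p was 0.00802.

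Of 104 related genes tested, 6 had a lower and 6 a higher value in lin-52, near the 6.20% lower and 5.44% higher of all tested genes, so the counts do not set these genes apart. Lower were cdk-11.2 (-0.53 ± 0.09), cyh-1 (-0.50 ± 0.09), cit-1.2 (-0.46 ± 0.06) and cdk-7 (-0.40 ± 0.07), which all rose with UV in both strains, tyms-1 (-0.37 ± 0.10), which fell in both, and ddb-1 (-0.21 ± 0.05), which rose in both. Higher were icp-1 (0.40 ± 0.06), pcn-1 (0.35 ± 0.06), mcm-2 (0.31 ± 0.09), lin-35 (0.29 ± 0.08), mat-2 (0.24 ± 0.06) and plk-1 (0.22 ± 0.06). The gene icp-1, for a subunit of the chromosomal passenger complex, fell by 0.17 in N2 and rose by 0.23 in lin-52. Of these 12 calls, 6 held in every alternative (cdk-11.2, cyh-1, cit-1.2, cdk-7, icp-1 and pcn-1), and 6 did not. The least stable were lin-35, whose call changed in 18 of 23 alternatives, and plk-1, in 17.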

How the results depend on the processing

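Over 50 pairs of member and comparison, 44 kept their call in each of 22 to 24 alternatives, and in none did a called change turn its sign. The pairs that did not were cye-1, cyb-1 and cdk-1 between strains without UV and cdk-2 with UV in N2. With UV in lin-52 they were cya-1 and cki-1, the latter only in the fit that leaves lin-52 mock 3 alone. Those that kept their call include all pairs of cya-2, which passed the filter only through lin-52 UV. The count of members called between strains without UV (1) became 2 on FPKM as deposited, with an equal sum of protein-coding FPKM and with quantile normalization, each adding cdk-1, and 3 with only the 2 groups compared, adding cyb-1 and cdk-1 (adjusted p = 0.0483 and 0.0272). Leaving out 1 library gave 0 to 2. Leaving out lin-52 mock 2 and 4 together leaves lin-52 mock 3 alone in its group, and cye-1 was then at 0.32. The count for the strain difference of the UV effect became 0 with a filter at a mean of 5 FPKM, since cya-2 was then not tested. Deviations from the group means had r from -0.16 to 0.25 over 13 same-numbered pairs of libraries, 3 of them above 0.1. Over 41 differently numbered pairs r was -0.18 to 0.19, with 5 above 0.1. With so few libraries, these values cannot decide whether the same number marks libraries that deviate together. With the replicate block, the counts of members stayed at 1 without UV and 1 for the strain difference of the UV effect, and those of all genes called were 414 in place of 688 and 837 in place of 1503. Without N2 mock 1 the count of all genes called between strains without UV was 447. For the strain difference of the UV effect it was 833 to 979 without N2 mock 1, N2 UV 2, N2 UV 3, lin-52 UV 3 or lin-52 UV 4. Of the 29 related genes called between strains without UV, 9 kept their call in every alternative, of 53 after UV 37, of 83 with UV in N2 73, and of 73 with UV in lin-52 54. The causes of these changes were not tested. Another promoter window was not run, since promoters were not analysed here. The precision of cya-2 is unknown from counts, since it stood near 1 FPKM in most libraries and read totals are not known. With 3 libraries a group, the median SE over all tested genes was 0.08 on the log2 scale.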

Other observations

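Some genes of the related lists were too low to be tested. The CDK regulator genes wee-1.1 (0.0498 to 0.388 FPKM), cdc-25.3 (0 to 0.166) and cdc-25.4 (listed at 0 in all 12 libraries) stayed below the filter in every group. The gene lin-31, of the list linked to cki-1, was at 0.930 to 1.16 FPKM in N2 mock and 0.140 to 0.301 in N2 UV, and lin-29 at 0.987 to 1.75 and 0.480 to 0.622, and neither was tested. The noncoding gene Y38F1A.12, which overlaps the span but no exon of cyd-1, ranged from 0 to 16.4 FPKM over all libraries. It was at 7.90 to 16.4 FPKM in N2 mock, above the 2.39 to 6.27 of lin-52 mock and the 0 to 7.79 of N2 UV, and at 2.14 to 8.58 in lin-52 UV.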
